A study of Mus musculus with 2 samples.

Results

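Open chromatin at the ends of noncoding genes was described in 2 ATAC-seq libraries of mouse kidney cells at E18.5, shortly before birth. ATAC-seq marks open chromatin by letting a transposase cut accessible DNA, and a peak is a stretch with more cuts than the peak caller's background. One library came from wild-type control kidneys and the other from Brg1cKO/cKO kidneys, and both were made from tdTomato-positive cells of the Wnt4 lineage sorted by flow cytometry, with 50000 cells per reaction. Wnt4 is switched on when kidney mesenchyme turns into epithelium, and Brg1, encoded by Smarca4, is an ATPase of the BAF complex, which moves nucleosomes. The labels name no Cre line and no number of animals, and the cell type label of the control library reads only "control". Its place in the Wnt4 lineage therefore rests on its title and the shared protocol. Wnt4 itself (chr4:137277635-137299501) had 2 control peaks and 1 cKO peak within 1000 bp of its ends. Smarca4 (chr9:21616106-21704230) had 1 in each list, which does not check the genotype, since a peak at a gene end does not show whether exons were deleted.

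A noncoding-end peak was defined as a peak on chromosomes 1 to 19 or X within 1000 bp of either end of a noncoding RefSeq gene and more than 1000 bp from both ends of every protein-coding gene. The control list held 4798 such peaks among 77421 (6.20%), and the cKO list 3919 among 61102 (6.41%). For comparison, 15940 control and 15108 cKO peaks lay within 1000 bp of a protein-coding gene end (coding-end peaks), and 56117 and 41614 lay farther than that from any annotated gene end (distal peaks). A further 566 control and 461 cKO peaks were near pseudogene ends only. The annotation held 17415 noncoding genes on these chromosomes, of which 12697 were long noncoding RNA (lncRNA) genes, 1340 small nucleolar RNA (snoRNA) genes, 1228 microRNA (miRNA) genes, 1003 small nuclear RNA (snRNA) genes and 408 tRNA genes. Only 16899 of them had an end far enough from protein-coding genes to be able to have a noncoding-end peak.

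Noncoding genes use several kinds of promoter. Most lncRNAs are transcribed by RNA polymerase II from promoters that can resemble those of protein-coding genes, and tRNA genes by RNA polymerase III from promoters inside the gene. A miRNA is cut from a hairpin within a longer primary transcript, and many snoRNAs lie in introns of host genes, so the annotated ends of miRNA and snoRNA genes are often not transcription starts. The BAF complex is known for opening chromatin at many enhancers and promoters.

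Start-site windows of 6 lncRNAs are printed as examples of strong peaks in both libraries and of peaks in 1 library, which the counts of CpG and motifs further on refer to. Each runs from 250 bases before to 50 bases after the annotated 5′ end, is from RefSeq for GRCm38.p6 (the assembly of mm10), and is written 5′ to 3′ along the gene's strand. Capitals mark matches, on either strand, to 8 motifs. These were the AP-1 site TGANTCA, the box CCAAT, the GC box spelled GGGCGG, the TATA box spelled TATAAA, and the core of the CTCF motif. Also searched were part of the HNF1 site, with the letters GTTAAT, a TCF/LEF-like site with the letters AACAAAG, and the E-box with the letters CACGTG. Oip5os1, Chaserr and Mir22hg had strong peaks in both lists, Gm33633 and Gm29845 had peaks in the control list only, and Gm20110 had a peak of middling strength in the cKO list only.
Chaserr (chr7:73558346-73558645, minus strand): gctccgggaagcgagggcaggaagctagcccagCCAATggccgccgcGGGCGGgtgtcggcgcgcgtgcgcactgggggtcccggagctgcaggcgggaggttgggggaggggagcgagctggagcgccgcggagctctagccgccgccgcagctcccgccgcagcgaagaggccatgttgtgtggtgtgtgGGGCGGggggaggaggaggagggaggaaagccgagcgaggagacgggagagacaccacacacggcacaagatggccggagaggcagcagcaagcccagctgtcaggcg
Mir22hg (chr11:75461289-75461588, plus strand): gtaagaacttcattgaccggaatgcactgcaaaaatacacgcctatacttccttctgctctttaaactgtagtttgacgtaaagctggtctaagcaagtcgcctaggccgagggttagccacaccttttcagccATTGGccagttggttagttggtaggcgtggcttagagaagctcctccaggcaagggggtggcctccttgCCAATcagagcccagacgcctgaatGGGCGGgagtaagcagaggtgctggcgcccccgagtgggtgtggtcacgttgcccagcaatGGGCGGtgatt
Oip5os1 (chr2:119594046-119594345, plus strand): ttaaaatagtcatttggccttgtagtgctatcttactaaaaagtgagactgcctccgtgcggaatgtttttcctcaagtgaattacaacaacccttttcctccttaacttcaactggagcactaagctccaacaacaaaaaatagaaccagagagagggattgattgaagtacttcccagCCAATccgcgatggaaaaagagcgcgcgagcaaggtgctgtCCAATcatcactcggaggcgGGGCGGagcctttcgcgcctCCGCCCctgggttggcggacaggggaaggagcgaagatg
Gm33633 (chr8:121168135-121168434, minus strand): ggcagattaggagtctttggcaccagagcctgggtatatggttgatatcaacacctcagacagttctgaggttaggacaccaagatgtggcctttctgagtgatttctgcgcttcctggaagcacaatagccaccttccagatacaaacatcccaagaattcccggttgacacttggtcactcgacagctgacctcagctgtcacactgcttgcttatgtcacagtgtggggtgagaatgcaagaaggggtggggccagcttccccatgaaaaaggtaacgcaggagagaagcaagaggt
Gm29845 (chr8:77764715-77765014, minus strand): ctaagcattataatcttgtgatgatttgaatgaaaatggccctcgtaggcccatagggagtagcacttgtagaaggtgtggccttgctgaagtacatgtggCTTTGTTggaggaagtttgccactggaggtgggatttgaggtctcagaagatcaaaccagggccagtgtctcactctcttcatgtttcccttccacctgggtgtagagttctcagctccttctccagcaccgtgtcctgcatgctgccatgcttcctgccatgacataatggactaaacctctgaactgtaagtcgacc
Gm20110 (chr10:99608921-99609220, plus strand): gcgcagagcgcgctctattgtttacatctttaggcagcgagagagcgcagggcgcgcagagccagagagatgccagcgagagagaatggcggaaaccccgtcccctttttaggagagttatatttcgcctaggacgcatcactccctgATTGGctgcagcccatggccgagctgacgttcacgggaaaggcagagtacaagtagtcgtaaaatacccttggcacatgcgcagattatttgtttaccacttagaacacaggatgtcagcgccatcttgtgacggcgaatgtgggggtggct
Chaserr, a lncRNA beside the remodeller gene Chd2, held 30 CpG dinucleotides in 300 bases and GC boxes at 203 and 58 bases before its start. Oip5os1, also known as Cyrano, held 15 CpG and GC boxes on both sides of its start. Mir22hg, the host of miR-22, held 12 CpG, below the limit for a CpG-rich window used further on, with GC boxes on both sides of its start. Gm33633 held 4 CpG and none of the 8 motifs, and Gm29845 held 3 CpG and a TCF/LEF-like match. Gm20110 held 20 CpG and a CCAAT match, and most start sites open in 1 library had fewer CpG, as counted further on. A match describes the letters in the window and does not show that a factor binds there.

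With 1 library per genotype, no spread between replicates could be measured, and the genotypes were not tested against each other. Values in brackets are 95% intervals, exact binomial (Clopper-Pearson) for shares and normal for differences, and they cover counting error only. Read depth is unknown, since the lists hold no counts, so a missing peak is not shown to be closed chromatin. In sorted bulk cells, fewer cells of a type and less accessibility per cell cannot be told apart.

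Most peaks at noncoding gene ends were called in both libraries. A peak counted as found when it overlapped a peak of the other list by at least 1 bp. Of the control noncoding-end peaks, 3766 of 4798 were found in the cKO list (78.5%, 77.3 to 79.6%). The 1032 others made up 21.5%, against 25.9% unmatched among all control peaks, 5.89% of the coding-end peaks and 32.0% of the distal peaks. In the other direction 3731 of 3919 cKO peaks were found in the control list (95.2%, 94.5 to 95.9%). The 188 unmatched ones made up 4.80%, against 5.90% of all cKO peaks, 1.07% of coding-end and 7.77% of distal peaks. By both counts the noncoding-end peaks lay between coding-end and distal peaks.

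They also lay between the other classes in size and strength. The median width of a control noncoding-end peak was 949 bp, against 1689 bp at coding ends and 727 bp for distal peaks, and the cKO medians were 980, 1706 and 753 bp. The median −log10 p in the control list was 5.89 at noncoding ends, 9.56 at coding ends and 5.37 for distal peaks. Strength was therefore held equal by dividing each list into 10 equal classes of the −log10 p, called deciles. The strongest 2 deciles held 19.1% of control noncoding-end peaks, 66.4% of coding-end peaks and 6.96% of distal peaks. In the cKO list these shares were 15.4%, 63.0% and 4.96%.

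At equal strength the gap to protein-coding genes was small. Within deciles, control noncoding-end peaks were found less often than coding-end peaks (difference −3.01 points, −4.34 to −1.67, odds ratio 0.763) and more often than distal peaks (3.21 points, 2.21 to 4.22, odds ratio 1.29). For the cKO peaks the differences were −1.03 points (−1.86 to −0.204, odds ratio 0.746) and 1.00 points (0.350 to 1.65, odds ratio 1.26). The cKO differences were small enough to depend on the setting. The cKO difference from coding ends came within counting error with a window of 500 bp (−0.682 points, −1.54 to 0.178), with the control list shortened to as many peaks as the cKO list (−0.206 points, −1.40 to 0.985) and outside protein-coding gene bodies. The cKO difference from distal peaks did so with classes by peak area (0.462 points, −0.182 to 1.11) and with overlap of 50% of both peaks (−0.515 points, −1.51 to 0.484). The share found rose steeply with strength. From the weakest to the strongest decile, 33.8%, 44.9%, 54.6%, 69.3%, 82.3%, 88.5%, 94.0%, 98.7%, 100% and 100% of control noncoding-end peaks were found. The strongest 2 deciles held 639 and 278 of these peaks, all of them found. In the weakest decile 44.3% of coding-end and 35.1% of distal control peaks were found, so noncoding-end peaks lay nearest to distal ones there. Of the cKO noncoding-end peaks, 75.1%, 87.5%, 91.5%, 96.7% and 99.2% were found in the weaker 5 deciles and at least 99.8% in each of the stronger 5.

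**Figure D1:**
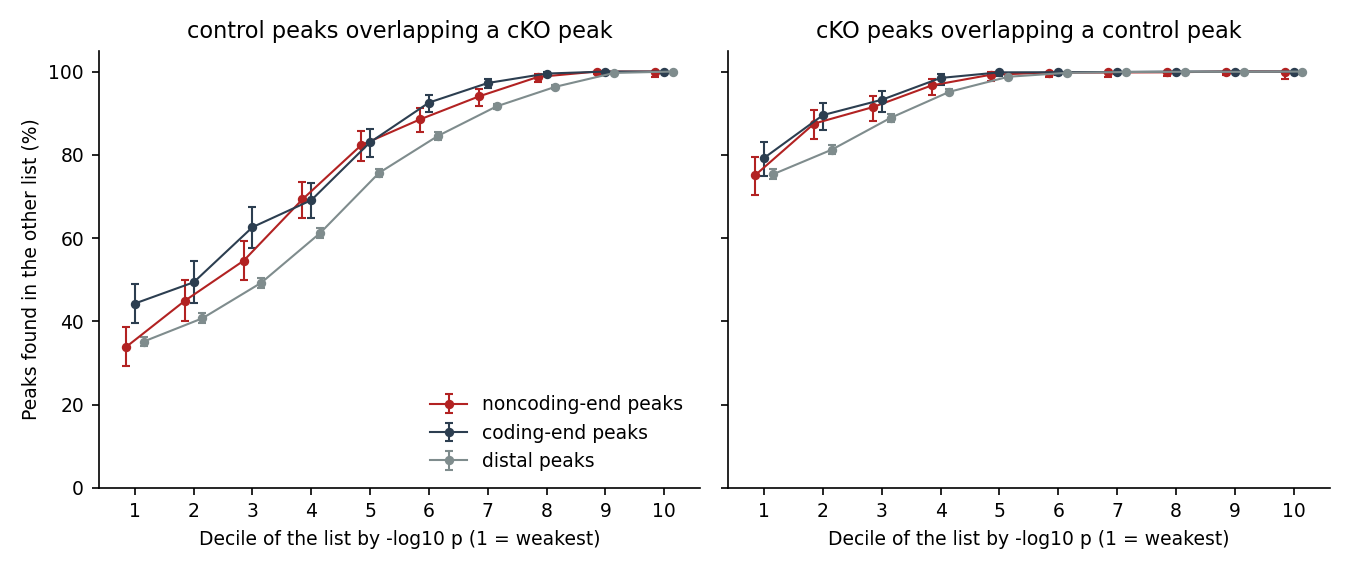
Share of peaks found in the other list (percent, vertical axis) by decile of −log10 p within the own list (1 is the weakest), for control peaks at the left and cKO peaks at the right. Points are noncoding-end, coding-end and distal peaks, bars are 95% Clopper-Pearson intervals, and the curves rise from 33.8% to 100% for control noncoding-end peaks and from 75.1% to 100% for cKO ones.

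The difference from coding-end peaks changed when peaks inside protein-coding genes were left out of both classes. Only 33.4% of control noncoding-end peaks overlapped the body of a protein-coding gene, against 92.8% of coding-end peaks and 58.3% of distal peaks. Among control noncoding-end peaks, 75.6% of the 1604 inside such bodies and 79.9% of the 3194 outside were found, a lower share inside at equal decile (difference −4.23 points, −6.29 to −2.17). In the cKO list the sign was opposite, with 96.2% of 1253 inside and 94.7% of 2666 outside (difference 2.0 points, 0.686 to 3.31). Distal peaks showed the same signs, −5.43 points in the control (−6.11 to −4.75) and 4.11 points in the cKO list (3.602 to 4.61). When the control peaks of both classes were restricted to those outside protein-coding gene bodies, noncoding-end minus coding-end was 0.304 points (−1.92 to 2.53). The same restriction gave −0.235 points (−1.70 to 1.23) in the cKO list. With peaks inside gene bodies left out of both classes, the difference from coding ends thus lay within counting error in both lists. That comparison rests on the small part of coding-end peaks outside gene bodies. Against all coding-end peaks, noncoding-end peaks outside gene bodies still lay lower. The difference was −1.61 points in the control (−3.10 to −0.119) and −1.62 points in the cKO list (−2.57 to −0.681). For those inside it was −5.79 points (−7.70 to −3.87) and 0.236 points (−0.920 to 1.39). Outside gene bodies noncoding-end peaks were still found more often than distal peaks, by 2.14 points in the control (0.893 to 3.39) and 2.11 points in the cKO list (1.27 to 2.95).

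Peaks just within and just beyond the 1000 bp limit of noncoding gene ends had similar shares. In the outermost 100 bp within the limit of a noncoding gene end 146 of 195 control peaks were found (74.9%), and in the next 100 bp beyond it 146 of 201 (72.6%). The cKO values were 146 of 156 (93.6%) and 149 of 158 (94.3%). On the side of the protein-coding genes, 20 of 25 control peaks just beyond 1000 bp and 28 of 31 just within it were found.

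Among the RNA classes, tRNA genes had a higher share found in the control list than coding ends of equal strength, and lncRNA and miRNA genes a lower one. At lncRNA ends 78.2% of 4359 control peaks were found, below coding-end peaks of equal strength (difference −2.98 points, −4.36 to −1.60). At tRNA genes 140 of 147 control peaks were found (95.2%, 90.4 to 98.1%), 4.26 points above coding ends (1.51 to 7.02) and 8.21 points above distal peaks (5.49 to 10.9). These tRNA peaks were strong, with 46.3% in the strongest 2 deciles. At miRNA hairpins 139 of 182 were found (76.4%, 69.5 to 82.3%), below coding ends (difference −6.34 points, −11.1 to −1.58) and within counting error of distal peaks (difference −0.564, −5.25 to 4.13). The snRNA genes had 74 of 85 found (87.1%) and the snoRNA genes 42 of 56 (61.6 to 85.6%), and for both the intervals of the difference from coding ends included 0 (−2.74 points, −8.41 to 2.93, and −7.24 points, −17.4 to 2.89). Immunoglobulin and T cell receptor V segments, which are rearranged in lymphocytes, had 4 of 13 control peaks found (30.8%, 9.09 to 61.4%). In the cKO list the shares were 95.1% of 3554 for lncRNAs, 140 of 143 for tRNAs (97.9%), 142 of 147 for miRNAs (96.6%), 71 of 72 for snRNAs, 42 of 45 for snoRNAs and 4 of 4 for V segments. There the tRNA difference from coding ends was −0.266 points (−1.79 to 1.26), within counting error, and the difference between the lists was not tested.

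**Figure D2:**
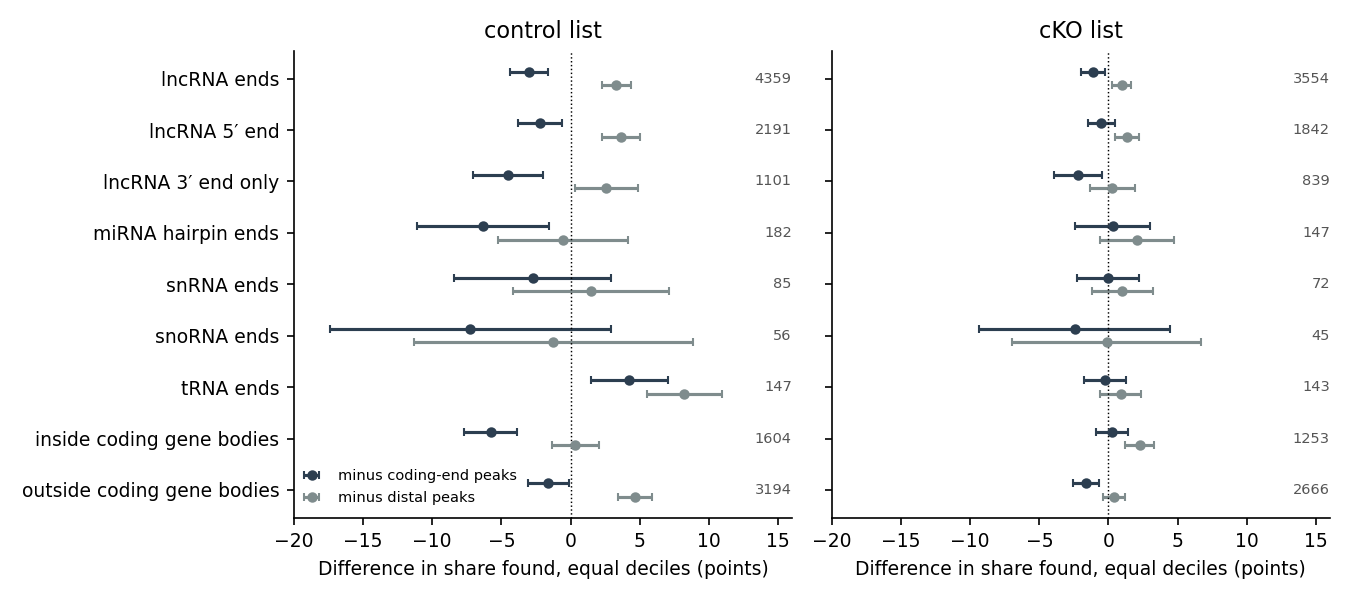
Difference in the share found at equal decile, in points, between subsets of noncoding-end peaks and all coding-end (dark) or all distal peaks (grey), with 95% normal intervals, for the control list at the left and the cKO list at the right, and the number of peaks at the right edge of each panel. In the control list the 147 tRNA peaks lie to the right of 0 against both classes, while the 182 miRNA peaks lie to the left of 0 against coding-end peaks.

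For lncRNAs with a known strand, the end that carried the peak was compared. This division was chosen after the files were seen and covers 9520 lncRNA genes. Control peaks within 1000 bp of a lncRNA 5′ end were found in 81.0% of 2191 cases (79.3 to 82.6%), and peaks near a 3′ end only in 72.8% of 1101. At equal decile the difference was 1.39 points (−0.831 to 3.61), and in the cKO list 1.17 points (−0.292 to 2.63), both within counting error. Against the 5′ ends of protein-coding genes, of which 97.3% of 10688 control peaks were found, lncRNA 5′ peaks lay lower at equal decile in the control (difference −5.01 points, −6.87 to −3.15) and in the cKO list (−1.42 points, −2.52 to −0.331). Peaks at 3′ ends of lncRNAs and of protein-coding genes differed by 0.282 points in the control (−2.68 to 3.25) and −0.272 points in the cKO list (−2.31 to 1.77). The gap between lncRNA and protein-coding genes was therefore measured at 5′ ends, while at 3′ ends it lay within counting error; the difference between these gaps was not tested. The summit of a lncRNA 5′ peak lay a median of 397 bp from the start in control peaks that were found and 423 bp in those that were not. In the cKO list these medians were 392 bp for 1769 found and 618 bp for 73 unmatched peaks. Strength was not held equal in these medians. In cKO deciles 1 and 2 unmatched peaks lay farther from the start than found ones (788 against 404 bp, and 731 against 453 bp). In decile 3 they lay nearer (167 against 382 bp, with 11 unmatched peaks).

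CpG content went with sharing at lncRNA start sites. Start-site windows of lncRNAs more than 1000 bp from protein-coding ends and not under a coding-end peak numbered 7738, and 1207 of them lay under a peak in both lists, 278 in the control only, 57 in the cKO only and 6196 in neither. A window counted as CpG-rich with at least 50% GC and a ratio of observed to expected CpG of at least 0.6. Of the windows open in both lists 266 were CpG-rich (22.04%, 19.7 to 24.5%), against 4 of the 278 open in the control only (1.44%, 0.393 to 3.64%), 3 of 57 open in the cKO only (5.26%) and 89 of those open in neither (1.44%). Gm20110, printed above, is among the 3. Protein-coding windows gave 68.9% in both lists, 6.60% in the control only, 28.6% in the cKO only and 2.59% in neither, again with the highest share in both lists. Recovery followed: 99.2% of 264 control peaks over CpG-rich lncRNA starts were found and 81.6% of 1191 over CpG-poor ones. CpG-rich starts had stronger peaks, and at equal decile the difference was 2.45 points (1.40 to 3.51) in the control and −0.452 points (−1.65 to 0.745) among the cKO peaks. Between CpG-rich starts of lncRNAs and of protein-coding genes the control difference was 0.0957 points (−1.06 to 1.25). Between CpG-poor starts it was −4.85 points (−7.79 to −1.90) in the control and −2.03 points (−3.36 to −0.701) among the cKO peaks. Nearly all control peaks over CpG-rich starts were found, 99.2% at lncRNAs and 99.8% at protein-coding genes, which left little room for a gap. Whether the gap differs between CpG-rich and CpG-poor starts therefore cannot be told from these shares.

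Motif matches were counted in the same windows. The GC box, bound by SP and KLF factors, was in 30.6% of lncRNA windows open in both lists, 13.3% of those open in the control only and 5.91% of those open in neither, and in 29.8% of all 19600 windows of the table. The CTCF core, bound by the insulator protein CTCF, was in 15 lncRNA windows and in 0.260% of all windows. All 15 lay under a peak in both lists, where 15.6% of all lncRNA windows did. Among protein-coding windows with this core 25 of 28 were open in both lists, against 55.9% of all protein-coding windows. By contrast 369 of the 780 lncRNA windows with a GC box (47.3%) and 96 of the 817 with an AP-1 match (11.8%) were open in both. All these bases include windows open in neither list. Of the lncRNA windows under a control peak, 1207 were open in both lists and 278 in the control only. The strongest control peaks of the 15 lncRNAs with the CTCF core lay above 47.2% to 86.3% of control peaks. In those deciles at least 82.3% of control noncoding-end peaks were found. AP-1 was in 7.95% of lncRNA windows open in both lists, 9.71% of those open in the control only, 11.1% of those in neither and 8.79% of all windows. TATA was in 10.6%, 13.3% and 18.6% of these lncRNA groups and 16.4% of all windows, and CCAAT in 29.8%, 31.3% and 37.7%, with 38.5% of all. The HNF1 motif, for a factor of tubule cells, was in 8.86%, 8.99% and 9.78% and the TCF/LEF-like motif in 7.13%, 7.19% and 8.25%, against 7.95% and 6.31% of all windows. The E-box, in 6.81% of all windows, was in 7.04%, 7.55% and 5.10%. The 57 windows open in the cKO only held TATA in 28.1%, CCAAT in 22.8%, the GC box in 14.0%, HNF1 in 12.3%, AP-1 in 8.77%, and TCF/LEF-like and E-box in 3.51% each, shares that rest on few windows. Some motifs share letters with GC-rich sequence, so their counts are not independent of GC content, and its part was not tested.

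Of the 15 CTCF core windows, those of the 6 lncRNAs with the strongest control peaks are shown as examples. Each is 41 bases from RefSeq, GRCm38.p6, along the gene's strand, with the core in capitals.
Gm30284 (chr17:86445086-86445126, minus strand): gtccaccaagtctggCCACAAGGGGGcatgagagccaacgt
Gm41504 (chr16:94713902-94713942, minus strand): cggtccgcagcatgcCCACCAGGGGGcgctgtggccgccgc
Gm30470 (chr11:79224602-79224642, plus strand): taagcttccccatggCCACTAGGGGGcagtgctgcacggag
Gm38588 (chr7:98481176-98481216, plus strand): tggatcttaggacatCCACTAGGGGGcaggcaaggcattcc
Gm34552 (chr12:74317169-74317209, minus strand): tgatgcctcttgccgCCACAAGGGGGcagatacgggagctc
Gm33663 (chr7:143466484-143466524, minus strand): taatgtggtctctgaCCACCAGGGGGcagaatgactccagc
The control peaks over these 6 lncRNA starts were more significant than 79.5% to 86.3% of all control peaks, and the cKO peaks than 73.1% to 81.9% of all cKO peaks. Of the 6 windows only that of Gm41504 was CpG-rich, and Gm33663 on chromosome 7 has its core 11 bases before the start.

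**Figure D3:**
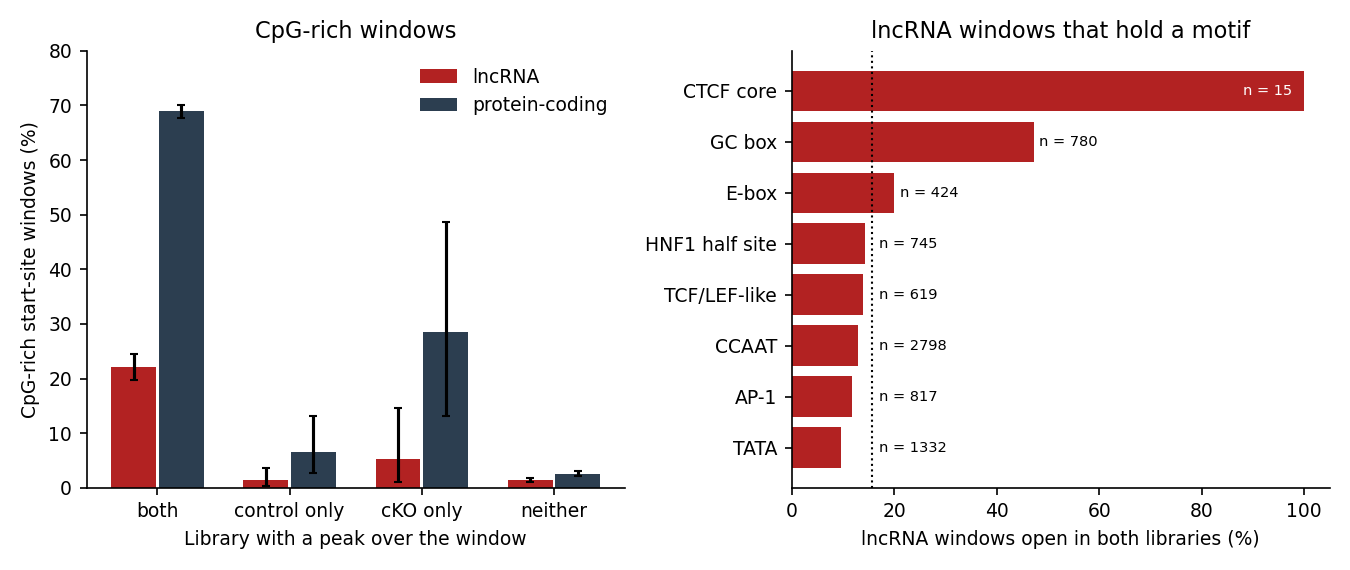
Left: share of start-site windows of 300 bases that are CpG-rich (percent), by the library with a peak over the window, for lncRNAs and protein-coding genes, with 95% Clopper-Pearson intervals. Right: share of lncRNA windows holding each motif that lie under a peak in both lists, with the number of windows, and a dotted line at the 15.6% of all lncRNA windows; the CTCF core reaches 15 of 15.

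Counted by gene, 4314 noncoding genes had a noncoding-end peak in the control list and 3663 in the cKO list, 3468 in both. Of these genes, 3722 in the control were lncRNAs. Most had 1 peak (3522 genes), 695 had 2 and 97 had 3 or more, and 330 control peaks served several genes, up to 6. The largest number was 4, reached by 10 genes. The first 5 by name were Gm14488, Gm32702, Gm35149 and Gm40078, which each had all 4 control peaks found, and Gm16315, with 3 of 4 found.

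A gene was called open in 1 library only when it had a noncoding-end peak there that overlapped no peak of the other list, and the other list had no peak of any class within 1000 bp of its ends. By this rule 685 noncoding genes were open in the control only, 15.9% of those open there, against 2.26% of protein-coding genes (334 of 14782). In the cKO only there were 124, or 3.39%, against 0.256% of protein-coding genes (37 of 14479). With the control list shortened to as many peaks as the cKO list, 370 were control-only and 331 cKO-only. Lists of equal length bring the counts of both directions closer by themselves, and the part of list length in the excess was not tested. Most of the gap to protein-coding genes went with strength. At equal decile of a gene's strongest peak, the share of control-only genes differed between noncoding and protein-coding genes by 1.34 points (−0.181 to 2.85, odds ratio 1.22), within counting error. Noncoding genes were cKO-only more often by 1.44 points (0.623 to 2.26, odds ratio 1.91). The 713 peaks of the control-only genes were weak, with 66.6% in the lowest 3 deciles, 8 in decile 8 and 0 in the strongest 2. Of the 127 peaks of the cKO-only genes 89.0% were in the lowest 3 deciles, 1 in decile 8 and 0 above it.

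**Figure D4:**
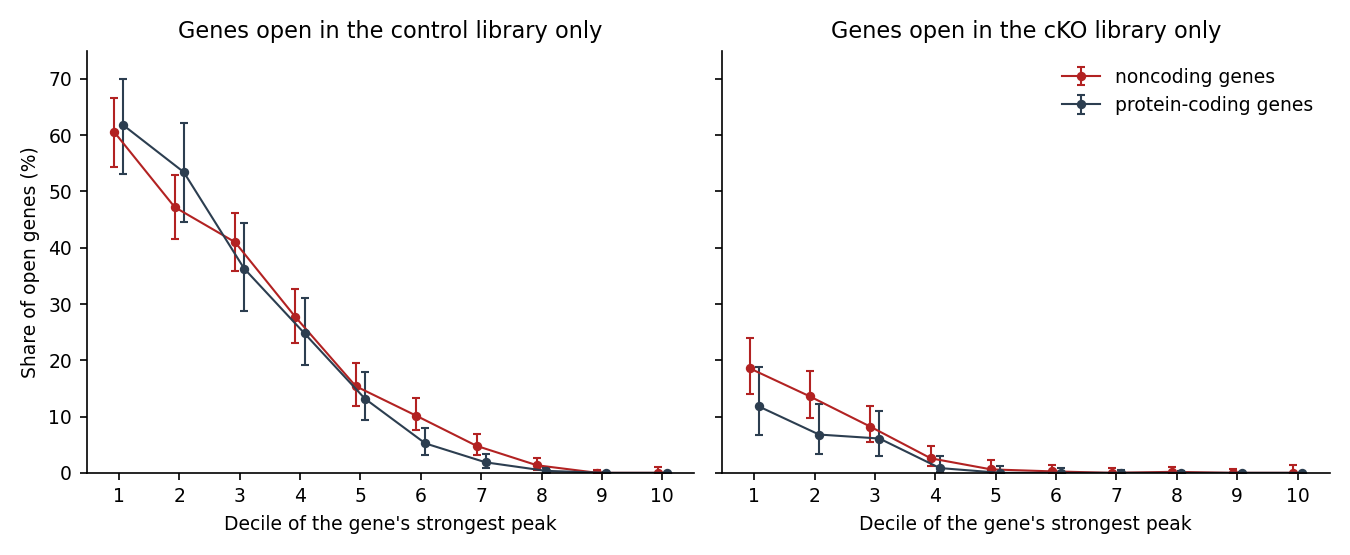
Share of open genes that were open in 1 library only (percent, vertical axis) by decile of the gene's strongest peak (1 is the weakest), for noncoding and protein-coding genes with 95% Clopper-Pearson intervals. Both kinds of gene fall together from the weakest deciles to 0 in the strongest, and weighted over deciles noncoding minus protein-coding is 1.34 points (−0.181 to 2.85) in the control and 1.44 points (0.623 to 2.26) in the cKO library.

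By class, the control-only genes were 610 lncRNAs (16.4% of lncRNAs open in the control), 33 miRNAs (18.4% of 179), 14 snoRNAs of 63, 8 snRNAs of 79, 9 V segments of 13 and 5 tRNAs of 207 (2.42%). The cKO-only genes were 112 lncRNAs, 5 miRNAs, 3 snoRNAs, 2 rRNA genes, 1 snRNA and 1 tRNA. Of the control-only genes 264 (38.5%) overlapped a protein-coding gene body, against 1200 of the 3468 open in both (34.6%) and 32 of the 124 open in the cKO only (25.8%). Among miRNA genes 28 of 33 control-only ones did so (84.8%, 68.1 to 94.9%), against 80 of 141 open in both (56.7%, 48.1 to 65.0%). The share was also higher among control-only snRNA genes (6 of 8, against 24 of 68) and snoRNA genes (6 of 14, against 9 of 45), on few genes. For lncRNAs the shares were 36.6% and 35.8%, and for tRNA genes 0 of 5 and 8 of 196. Strength was not held equal in these shares.

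The strongest control-only gene was Gm23223, a snoRNA gene inside Septin10 on chromosome 10 (59195699 to 59195825). Its control peak, chr10:59194725-59196169, had a −log10 p of 7.91, higher than 79.6% of control peaks, and the nearest cKO peak was 24658 bp away. Gm33633, whose start is printed above, is a lncRNA 36272 bp from Foxl1, a forkhead factor gene of mesenchyme. Its peak, chr8:121167745-121169047, covered the 5′ end, with a −log10 p of 7.48 and a cKO peak 869 bp away. Gm29845 lies 35295 bp from Ednra, which encodes an endothelin receptor. Its peak, chr8:77763944-77764773, also covered the 5′ end, with a −log10 p of 6.92, and the nearest cKO peak was 8046 bp away. Gm51603, inside Pcnx2, had a value of 7.36 with its nearest cKO peak at 8841 bp, and Gm11513, overlapping the pyruvate dehydrogenase kinase gene Pdk2, had 7.21 with a cKO peak at 1776 bp.

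A further 7 control-only genes had control peaks of −log10 p 6.78 to 6.91. Gm33750, a lncRNA inside the myosin gene Myo5c, had a peak 5 bp inside its 5′ end (6.91). Gm46916 on chromosome 5 (6.88) had its peak over the 5′ end, and Gm41642 on chromosome 17 (6.86) had it 79 bp from the 5′ end. Gm16350 lies inside Arhgef10 (6.85). Gm32200 (6.81) and 1700025M24Rik (6.78) each had 2 control peaks, none of them found. Mir6940, inside Cep170b, had 6.78. None of these 12 genes reached the strongest 2 deciles, so all lay where some peaks of every class are unmatched.

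Among the cKO-only genes, the strongest peaks were on the X chromosome. G530011O06Rik, a lncRNA inside Mid1 near the edge of the region shared by the sex chromosomes (chrX:169975043-169978917), had 2 cKO peaks, with −log10 p 7.24 (chrX:169974497-169975337) and 6.31 (chrX:169978504-169981466), and the nearest control peaks were 11147 and 5018 bp away. Xist (chrX:103460373-103483233), the lncRNA that coats and silences the inactive X chromosome in female cells, had a cKO peak of 1093 bp (chrX:103481311-103482403) with −log10 p 5.76. This peak lies 830 bp inside the gene from its 5′ end, and the nearest control peak was 3523 bp away. Over all X-linked noncoding ends 47 of 52 control peaks (90.4%, 79.0 to 96.8%) and 46 of 53 cKO peaks (86.8%, 74.7 to 94.5%) were found, and on the autosomes 78.4% and 95.3%. At equal decile the X-linked cKO peaks lay below the coding-end peaks of all chromosomes (difference −9.75 points, −18.0 to −1.46). Against the distal peaks of all chromosomes the difference was within counting error (−7.79 points, −16.1 to 0.488). X-linked coding-end and distal peaks were not compared on their own, so these values do not set noncoding ends apart from the rest of the X chromosome. The 7 unmatched X-linked cKO peaks were those of G530011O06Rik and Xist and 1 each at Gm39496, Gm39548, Gm8817 and Gm52427, the last 4 named after a look at their values. Chromosome Y had 29 control and 30 cKO peaks. The sex of the embryos is not in the labels, and its part in these X-linked peaks was not tested.

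The autosomal cKO-only genes had weaker peaks. Gm20110 on chromosome 10, with the CpG-rich start printed above, had a cKO peak of 596 bp over its 5′ end (chr10:99608678-99609273, −log10 p 5.45), more significant than 43.5% of cKO peaks. Gm46356 had 5.36, Gm41336 5.21 and Gm40932 5.14. Gm11419 overlaps the ion channel gene Asic2 (5.12), Gm34577 overlaps the phosphodiesterase gene Pde5a (5.09), and the snoRNA gene Gm24373 lies in Negr1 (5.07). Gm36843 (5.05) lies 195778 bp from Irx3, a nephron patterning gene. Gm10494, with 2 cKO peaks, and Gm34286 both had 5.02. An unmatched cKO peak at Arhgap33os (5.64) was stronger than that of Gm20110, but this gene also had a control peak within 1000 bp of an end and was not counted.

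The tRNA genes were open in large numbers and nearly the same in both libraries. Of 408 tRNA genes 207 had a noncoding-end peak in the control (50.7%), 198 in the cKO list and 196 in both, against 24.8% of all noncoding genes in the control. They are near-identical copies in clusters, share peaks, and reads from them can be hard to place, so neighbouring genes are not independent. By amino acid, 19 of 25 leucine, 16 of 22 valine, 6 of 7 phenylalanine and 8 of 11 histidine tRNA genes were open in both lists. Cysteine was the exception, with 3 of 56 genes open in the control library and 2 without Brg1, and lysine had 11 of 26 in each. The 5 control-only tRNA genes, named here after a look at their values, were n-TSgct1, n-TCgca56, n-TTcgt4, n-TQctg5 and n-TGgcc1. Their −log10 p ran from 4.05 to 5.73. The 1 cKO-only gene, n-TWcca1, had 4.08.

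**Figure D5:**
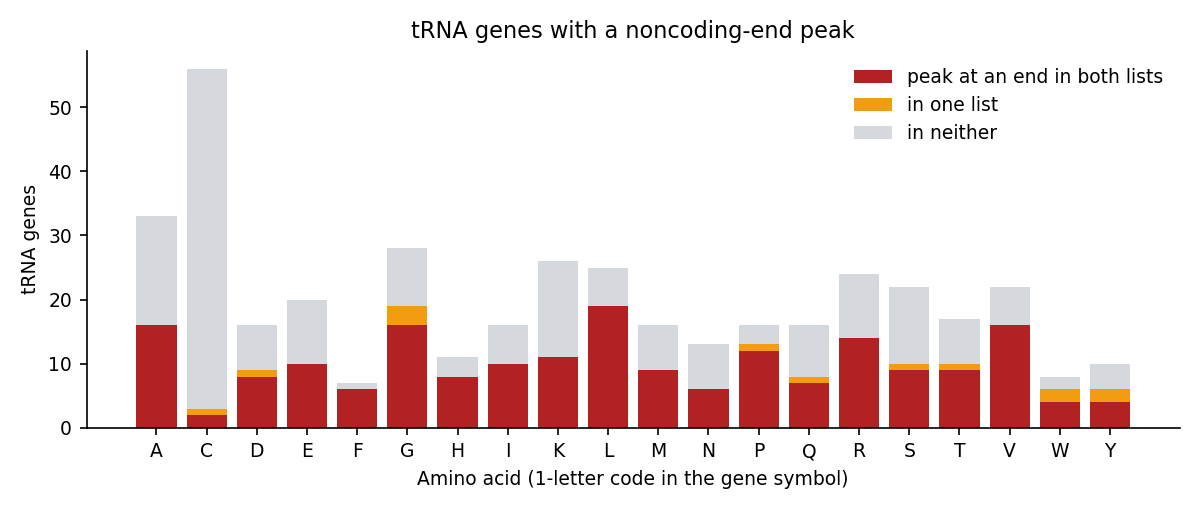
Number of tRNA genes per amino acid (1-letter code) with a noncoding-end peak in both lists, in 1 list or in neither. Cysteine (C) has 56 genes of which 2 are open in both lists, while leucine (L) has 19 of 25 and valine (V) 16 of 22.

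Of 190 miRNA genes with a noncoding-end peak in either list, 171 had a mature sequence in the RefSeq table, and 23 seeds were shared by 2 or more of them. Mature sequences are printed 5′ to 3′ with the seed, bases 2 to 8, in capitals. They are those of the kidney and epithelial miRNAs described next and of the strongest control-only miRNA. The miR-148 and miR-129 families are printed as examples of families whose members differed between the libraries.
miR-210-3p: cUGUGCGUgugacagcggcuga
miR-17-5p: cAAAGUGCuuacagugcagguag
miR-193a-3p: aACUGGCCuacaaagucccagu
miR-193b-3p: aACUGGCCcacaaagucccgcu
miR-30a-5p: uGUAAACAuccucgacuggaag
miR-10a-5p: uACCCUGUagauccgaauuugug
miR-34a-5p: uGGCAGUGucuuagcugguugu
miR-148a-3p: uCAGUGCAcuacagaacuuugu
miR-148b-3p: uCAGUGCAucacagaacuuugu
miR-129-5p: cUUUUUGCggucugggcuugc
miR-6940-5p: aGGGCUGGcuggaagguuuuucg
Of 36 listed kidney and epithelial miRNA genes 35 were in the table, 30 could have a noncoding-end peak, and 7 had one in each list, the same 7. All 8 of their control and all 8 of their cKO peaks were found, against 78.5% and 95.2% of all noncoding-end peaks, without strength held equal. Mir210, a hypoxia-induced miRNA, had a control −log10 p of 11.6, more significant than 98.7% of control peaks, and lay above 96.3% of peaks in the cKO list. Mir22hg lay above 98.5% and 98.95%, and Mir17, of an oncogenic cluster that kidney progenitors use, above 94.6% and 92.8%. Mir193a had 2 peaks in each list, with the strongest above 94.4% and 93.8%. Its seed ACUGGCC is shared with miR-193b, whose gene was also open in both. Mir30a and Mir10a lay above 80.4% and 79.9% of control peaks and 67.2% and 69.2% of cKO peaks. Mir34a, a p53 target, had weak peaks in both, above 13.3% and 1.36%. Of the epithelial markers miR-200 family, miR-141 and miR-205, 0 of 6 genes had a noncoding-end peak in either list, and a hairpin end is not the start of their primary transcripts.

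Some miRNAs with the same seed differed in their peaks, and the miR-148 and miR-129 families are given as examples. Other shared seeds also had a gene not open in both lists, such as GGGCUGA (2 of 3 genes open in both) and AGGGAGG (1 of 2). Mir148a, with seed CAGUGCA, was open in both lists, above 89.6% and 85.8% of peaks, with 1 of its 2 control peaks found. Mir148b, which has the same seed and lies in the coatomer gene Copz1, was open in the control only, above 22.3% of control peaks. Mir129-1 and Mir129-2 give the same mature miR-129-5p. The hairpin of Mir129-1 had 2 control peaks, both found, and 1 cKO peak, while Mir129-2 had a cKO peak only, above 5.26% of cKO peaks. The other cKO-only miRNA genes were Mir129b, under the same peak as Mir129-2, Mir7019 in Pink1, Mir137 and Mir7230, with peaks above at most 27.1% of the list. The choice of these genes, and of Mir148a, Mir148b, Mir129-1 and Mir193b, followed a look at their values.

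Genes known for particular functions were grouped in lists. Over all noncoding-end peaks 78.5% of control and 95.2% of cKO peaks were found. Of all open noncoding genes 15.9% were control-only and 3.39% cKO-only. Strength was not held equal in these lists, so a high share found is not read as particular to their genes. Of 16 imprinted genes in the table, expressed from 1 parental allele, 9 were open in both lists and none in 1 only. All 10 control and all 11 cKO peaks of these genes were found. Kcnq1ot1, which silences its neighbours on the paternal chromosome 7, lay above 87.2% of control and 84.5% of cKO peaks, Peg13 above 85.9% and 82.4%, Airn above 85.3% and 82.7%, and Igf2os above 83.4% and 83.1%. H19 had 2 control and 3 cKO peaks, all found, and its strongest control peak also serves Mir675, which lies within it. Of 8 X-linked genes in the table, Firre was above 86.4% of control and 82.8% of cKO peaks, Jpx above 78.6% and 79.4%, and Ftx had 3 of 3 control peaks and 1 of 1 cKO peak found, which leaves Xist as the gene of this list open in 1 library only.

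Host genes of snoRNAs carry snoRNAs in their introns. Of 19 that could have a noncoding-end peak 13 were open in both lists, with 14 of 16 control and 16 of 16 cKO peaks found. Snhg8 lay above 97.5% of control and 96.3% of cKO peaks, Dancr above 94.2% and 92.2%, Snhg5 above 93.5% and 91.8%, and Snhg16 above 92.6% and 92.0%. Snhg16 and Snhg11 each had 1 of 2 control peaks unmatched, and their other peak covered the 5′ end and was found. Not all peaks of this list were strong or at a start: Zfas1 had a peak 543 bp from its 3′ end, above 12.4% of control and 35.3% of cKO peaks. Gas5 had a noncoding-end peak in the control and Snhg1 in the cKO list only, each overlapping a peak of the other list that falls in another class.

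Abundant nuclear RNAs and polymerase III transcripts were open in both lists at 10 of 12 genes that could be, and all 11 control and all 12 cKO peaks were found. Rn7s2, for the signal recognition particle RNA, lay above 97.7% of control and 96.7% of cKO peaks. Malat1, a lncRNA of nuclear speckles, lay above 96.7% and 97.6%, and Rn7sk, which holds back the elongation factor P-TEFb, above 96.2% and 94.2%. Rnu11, of the minor spliceosome, lay above 92.4% and 89.8%.

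The lncRNAs beside or named after developmental regulators gave the 1 listed gene open in the control only. Of 24 that could have a noncoding-end peak 10 were open in both lists, and 12 of 13 control and 11 of 13 cKO peaks were found. Hnf4aos, antisense to the nuclear receptor gene Hnf4a of the proximal tubule, had 1 control peak, 122 bp from its 3′ end, with −log10 p 4.73, above 20.3% of control peaks. No cKO peak overlapped it. The peak lay 46984 bp from the 5′ end of Hnf4aos, a gene that overlaps R3hdml. Hotair lay above 85.2% of control and 79.9% of cKO peaks, Hoxb3os above 84.1% and 83.0%, Dnm3os, the host of miR-199a and miR-214, above 82.0% and 82.1%, and Six3os1 above 78.0% and 73.6%. Pantr2 and Hottip each had 1 control peak, found, and 1 of 2 cKO peaks found. Among other well known lncRNAs 17 of 23 were open in both lists, with 21 of 24 control and 24 of 24 cKO peaks found. Chaserr lay above 99.2% of control and 97.5% of cKO peaks at its start, while its other control peak was unmatched. Oip5os1 lay above 98.0% and 96.7%, and Lockd, beside Cdkn1b, above 90.5% and 93.7%. Norad, which buffers Pumilio proteins, lay above 85.4% and 82.9%. Halr1, Mir100hg and Chaserr each had 1 of 2 control peaks unmatched.

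Noncoding markers were open, in both libraries alike, for smooth muscle and neural genes and not for the other marker lists. Neither list had a noncoding-end peak at the 4 immune, 2 endothelial, 5 skeletal and heart muscle, 1 liver and 6 epithelial marker genes. All of these could have one, while neither of the 2 erythroid genes could. The epithelial list was empty although Wnt4 is switched on as epithelium forms, so an empty list does not show that a cell type was absent. All 3 smooth muscle and pericyte genes and 6 of 9 neural genes had peaks in both lists, with 3 of 3 and 7 of 8 control peaks found. The 3 smooth muscle and pericyte genes are 1 locus, since Mir143 and Mir145a lie within Carmn on chromosome 18 and share a control peak. The neural genes were Mir9-1, Mir9-2, Mir9-3, Mir124a-1, Mir124a-3 and Miat, with control peaks above 44.2% to 82.8% of the list. No marker gene was open in 1 library only, and the part of other cell types in the unmatched peaks was not tested.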

How the data were processed

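ATAC-seq was measured in 2 libraries, 1 per genotype. Per the submitters' processing notes, Trim Galore, SAMtools and Genrich were used on mm10; the sources used here give no aligner, versions, settings or shift of read ends. Each deposited list is in narrowPeak form, with the authors' score per peak (not used), a deposited signal (the area under Genrich's curve, 200 or more), deposited −log10 p and −log10 q, and the summit position. Peaks below a −log10 q of 1.42 (control) or 1.35 (cKO) are not in the lists. These values depend on depth and background, so peaks were ranked within a list only; a value given as above a percentage of peaks is that rank. Peaks numbered 77529 and 61210, of which 77421 and 61102 on chromosomes 1 to 19 and X were used. Genes, promoter windows and miRNAs came from RefSeq (GRCm38.p6). The gene table has no strand, so gene ends are both annotated ends; strand came from the promoter table where it held the gene.

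Differences at equal decile were weighted by the noncoding-end peaks of a decile, with Mantel-Haenszel odds ratios. Python 3.11.15, pandas 2.3.3, scipy 1.17.1 and bedtools 2.31.1 were used, and the method was tested on simulated data. No p-value was computed. Named genes were up to 12 per library open there only, by rank; from each list up to 4 with most unmatched peaks and 4 of highest control rank; the 5 with most peaks; and the 5 strongest unmatched peaks per list. Others are marked or complete a small count. The members and lists were chosen with earlier results of these data known. Some genes of these lists are not reported here.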

Additional observations from a re-analysis of the deposited data

How the results depend on the processing

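No paired analysis was possible because each genotype had 1 library, and for the same reason no replicate could be left out. Of the 8 main values under 13 other settings and 3 more chosen after the data were seen, 77 kept their direction and stayed within the interval of the main value (for counts, within 1.5 times), 23 moved outside it and 2 reversed. Staying within it did not always keep an interval clear of 0. The control difference from distal peaks kept this in all settings run, and that from coding ends in all but 1, peaks outside gene bodies. The cKO difference from coding ends did not with a 500 bp window (−0.682), the shortened control list (−0.206), peaks outside gene bodies (−0.235) or, in a setting chosen after the data were seen, p and area together (−0.815). The cKO difference from distal peaks did not with 50% overlap, classes by area (0.462) or, likewise chosen later, p and width together (0.638). Requiring overlap of 50% of both peaks gave shares found of 72.8% (control) and 88.1% (cKO) and differences from distal peaks of 2.06 and −0.515 points, the latter reversed. Outside protein-coding gene bodies, the control share was 79.9%, the control difference from coding ends reversed to 0.304 points, the differences from distal peaks were 2.14 and 2.11 points, and 434 genes were control-only. With the control list shortened to as many peaks as the cKO list the shares were 87.1% and 87.0%, and the cKO difference from distal peaks was 2.27 points. There 370 control-only genes stood against 331 cKO-only ones, counts that equal length brings closer by itself. A window of 500 bp gave shares of 80.5% and 96.0%, and one of 2000 bp gave 75.8% in the control. In the more significant 50% of each list the control share was 75.4%, its difference from coding ends −4.56 points, and 78 genes were cKO-only. Counting absence of a noncoding-end peak alone gave 195 cKO-only genes. With classes by width the control difference from coding ends was −5.68 points. The control difference from distal peaks was 1.20 points with classes by area and, in settings chosen after the data were seen, 2.05 with p and width and 1.65 with p and area together. The cause of these moves was not tested. Depth is unknown, so weak peaks limit every count here.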
